A study of Mus musculus with 8 samples.

Results

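MHC class I presentation was followed through 10 genes: the heavy chains H2-D1, H2-K1 and H2-T24, the light chain B2m, the transport and loading genes Tap1, Tap2 and Tapbp, and the immunoproteasome subunits Psmb8, Psmb9 and Psmb10. They were found on the arrays as the probes whose gene name is one of these 10, which gave 12 probes. All 10 were among the 16154 genes tested, and the 12 probes were among the 20306 kept. Both probes of H2-T24 were kept only because they were well above background in the one group in which this gene was high, so summaries are also given without it.

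Class I molecules show peptides from inside a cell to CD8 T cells, and nearly every nucleated cell carries them. Peptides are cut by the proteasome, pumped into the endoplasmic reticulum by the TAP transporter and loaded there onto a heavy chain paired with B2m, with tapasin (Tapbp) as the bridge. Interferons raise the genes of this pathway, and they replace the standard catalytic subunits of the proteasome with Psmb8, Psmb9 and Psmb10.

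The cells were derivatives of C10, an established mouse pre-B line of HAFTL origin, and all carried an inducible form of C/EBPα, a transcription factor that turns pre-B cells towards a macrophage-like state. One line also held a Tet2 shRNA, and the other a control shRNA. The 4 groups were the line labelled Tet2 knockdown at 24 h and at 0 h, and the control line at 24 h and at 0 h, with 2 arrays each. All groups were grown with puromycin. The 24 h groups had received 100 nM estradiol and the cytokines IL-3 and M-CSF, each at 10 ng/ml, so no change over the induction can be set to C/EBPα alone. Each label stands for 1 line, and the series design calls the duplicates technical. Only the scatter of duplicate arrays enters the p-values, and no error between cultures could be given. Fewer cells with a transcript and less of it per cell cannot be told apart in bulk RNA.

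Promoters of H2-D1, H2-K1, B2m and Tap1 are shown because the first 3 held matches to known class I control motifs and the last did not. Each is the run of 250 bases before the start site from RefSeq on GRCm38.p6, read 5′ to 3′, with matches in capitals: H2-D1 at chr17:35262844-35263093 (plus strand), H2-K1 at chr17:34000348-34000597 (minus strand, the first of 2 start sites), B2m at chr2:122147437-122147686 (plus strand) and Tap1 at chr17:34187306-34187555 (plus strand).
H2-D1: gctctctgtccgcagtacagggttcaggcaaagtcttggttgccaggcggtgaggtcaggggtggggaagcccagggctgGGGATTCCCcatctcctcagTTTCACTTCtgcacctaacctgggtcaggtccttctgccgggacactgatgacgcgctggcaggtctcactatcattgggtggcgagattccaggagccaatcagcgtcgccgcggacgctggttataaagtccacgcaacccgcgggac
H2-K1: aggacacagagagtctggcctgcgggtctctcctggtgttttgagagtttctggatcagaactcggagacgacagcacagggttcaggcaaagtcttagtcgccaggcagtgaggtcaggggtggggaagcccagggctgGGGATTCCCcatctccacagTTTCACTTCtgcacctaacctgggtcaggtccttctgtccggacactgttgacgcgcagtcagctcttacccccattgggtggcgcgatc
B2m: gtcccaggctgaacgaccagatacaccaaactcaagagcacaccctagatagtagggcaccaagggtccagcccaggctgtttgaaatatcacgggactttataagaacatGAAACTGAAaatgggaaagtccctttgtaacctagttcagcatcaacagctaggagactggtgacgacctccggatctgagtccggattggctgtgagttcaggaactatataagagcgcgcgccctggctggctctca
Tap1: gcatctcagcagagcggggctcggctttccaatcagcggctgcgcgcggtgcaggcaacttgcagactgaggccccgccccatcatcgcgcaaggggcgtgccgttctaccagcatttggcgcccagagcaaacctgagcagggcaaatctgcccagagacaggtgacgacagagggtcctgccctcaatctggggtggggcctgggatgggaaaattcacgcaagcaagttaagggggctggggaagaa

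Motifs were searched on both strands in the 9 promoter windows of the 8 genes that matched the RefSeq table; H2-T24 and Tap2 did not match. The core of the class I enhancer A (GGGATTCCC), a site known to bind NF-kappa-B, was found in H2-D1 and H2-K1, with its last base 162 and 102 bases before the start. It was present in 99 of 32851 promoters of the same length (0.301%). Both of these promoters also held an IRF core (GAANNGAAA, in 6.31% of promoters), which appears above as TTTCACTTC because the match is on the other strand. It ended 142 and 82 bases before the start and did not overlap enhancer A. B2m held the core of an interferon-stimulated response element (GAAANNGAA, in 7.13%), seen as GAAACTGAA and ending 131 bases before the start. Psmb8 held a gamma-activated site (TTCNNNGAA, in 7.02%), seen as TTCCCAGAA at 89 bases. Tap1, Psmb9, Tapbp and Psmb10 held none of the 4 motifs in these windows. Tap1 and Psmb9 lie head to head, with 225 bases between their start sites, so their windows share chr17:34187331-34187555. These matches describe letters and were not tested as binding sites.

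Class I heavy chains are close relatives, and a probe for one can pair with another. The second H2-K1 probe (mm9, chr17:34133984-34134043, minus strand) shared a run of 16 or more bases with probes named for 4 other genes. The longest run, of 29 bases, was shared with the H2-T23 probe of the array and is in capitals below.
H2-K1: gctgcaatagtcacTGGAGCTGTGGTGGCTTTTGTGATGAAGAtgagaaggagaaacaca
H2-T23: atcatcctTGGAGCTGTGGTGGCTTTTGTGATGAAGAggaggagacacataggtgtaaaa

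The first H2-K1 probe, the H2-D1 probe and both H2-T24 probes shared no run of 16 or more bases with a probe named for another gene. The readings of the second H2-K1 probe are therefore given as uncertain. The first probe stands for the gene because its mean level was the highest. Only probes of the array were compared with each other, so pairing with other class I transcripts was not tested.

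Across the 8 arrays, 47.4% to 55.6% of probe spots were well above background, none was saturated, and duplicates correlated across genes with r of 0.992 to 0.994. Tet2, which the shRNA targets, was not lower in the line labelled Tet2 knockdown. Its level differed from the control line by 0.01 ± 0.10 on the log2 scale at 24 h (adjusted p = 0.982) and by -0.11 ± 0.10 at 0 h (adjusted p = 0.533), where ± is the standard error of the fit here and below. All 12 pre-B markers, such as Pax5, were well above background on both arrays of every group, which does not tell the times apart. Over the induction 6 of the 12 fell by at least 2-fold with an adjusted p under 0.05 (limma) in the line labelled Tet2 knockdown. In the control line 8 did so, and of all genes 15.5% and 13.1% did so in these lines. Of 11 macrophage and monocyte markers, 10 were well above background on both arrays of each 24 h group. At 0 h this held for 8 in the line labelled Tet2 knockdown and 9 in the control line. Their summed level was 9.84 to 9.96 (log2) in the knockdown-labelled arrays and 9.87 to 9.94 in the control arrays at 24 h, against 3.09 to 3.11 in the knockdown-labelled arrays and 3.38 to 3.51 in the control arrays at 0 h. Summed pre-B markers were 8.65 to 8.72 in the knockdown-labelled arrays and 8.18 to 8.31 in the control arrays at 24 h, against 9.04 to 9.23 in the knockdown-labelled arrays and 9.12 to 9.22 in the control arrays at 0 h. The part of this shift in cell state in any class I value was not tested.

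Over the 24 h of induction more of the class I genes rose in the line labelled Tet2 knockdown than in the control line. In the line labelled Tet2 knockdown, 6 of the 10 genes rose by at least 2-fold with an adjusted p under 0.05 (limma, Benjamini-Hochberg over all genes; genes passing both limits are called below): H2-D1, H2-K1, H2-T24, B2m, Tap1 and Tapbp. H2-T24 was testable only because this group was high, and without it the count is 5 of 9. Of all genes tested, 16.7% were called higher in the same comparison. The median of the 10 changes was 1.07 on the log2 scale (1.03 without H2-T24), against 0.14 for all genes. Of the 10, the control line had 2 that rose, H2-D1 and Tapbp, beside 14.2% of all genes, and the median was 0.46 (0.39 without H2-T24) against 0.00 for all genes. By role and without H2-T24, 3 of the 3 heavy and light chains, 2 of the 3 transport and loading genes and 0 of the 3 immunoproteasome genes were called in the line labelled Tet2 knockdown, against 1, 1 and 0 in the control line. No member was lower by the test in either line. With the adjusted p alone, 10 of the 10 passed in the line labelled Tet2 knockdown (9 of 9 without H2-T24), beside 36.2% of all genes as higher. In the control line 6 of the 10 passed, beside 30.7%. With arrays scaled by their median in place of the 75th percentile, 3 of the 10 were called in the line labelled Tet2 knockdown and 1 in the control line, while 2172 and 2098 of the 16154 genes were called higher in these lines. H2-K1 (0.78), B2m (0.95) and Tap1 (0.86) then lay below 2-fold in the line labelled Tet2 knockdown, and H2-D1 (0.93) in the control line. Common reference genes were not flat, and 15 of them had a median change of 0.46 in the line labelled Tet2 knockdown and 0.02 in the control line. Actb changed by 0.80 and 0.39 in these lines, and Gapdh by 0.61 and 0.17.

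**Figure D1:**
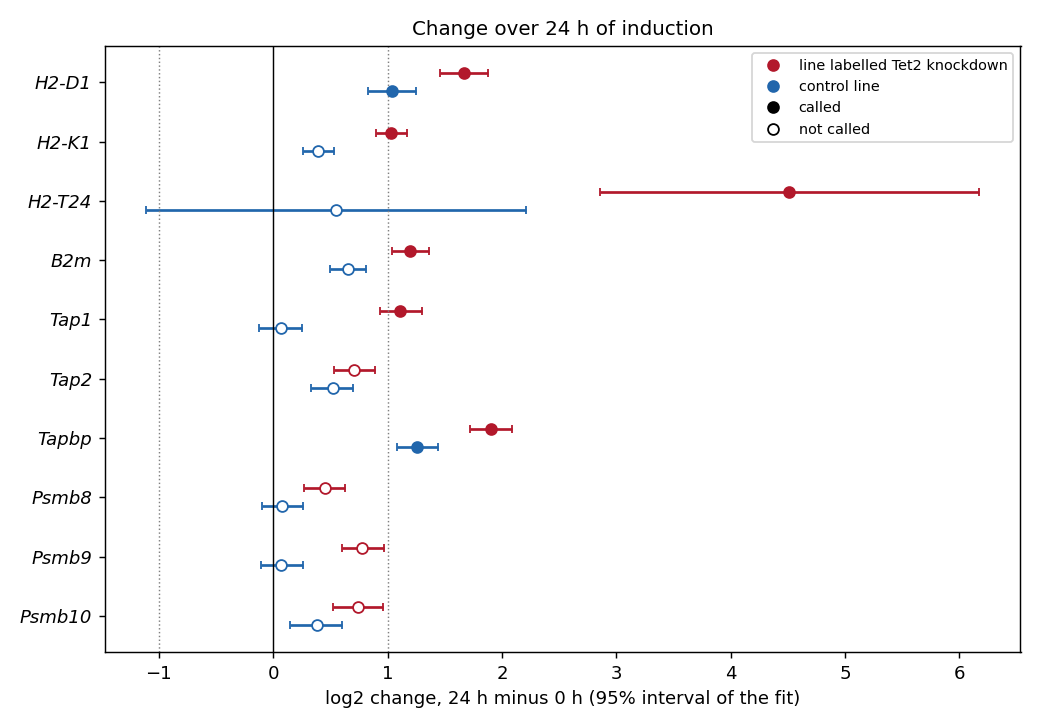
Change of each gene over 24 h of induction, as the log2 difference of 24 h minus 0 h with the 95% interval of the fit, in the line labelled Tet2 knockdown (red, upper) and the control line (blue, lower). Filled points passed both limits (6 and 2 of the 10 genes), dotted lines mark 2-fold, and the red point lies right of the blue one for every gene.

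The heavy chains bind the peptide, and H2-D1 and H2-K1 encode the classical ones of the D and K loci. Levels below are log2 of the signal relative to the 75th percentile of the same array. H2-D1 had levels of 7.76 and 7.62 in the line labelled Tet2 knockdown at 24 h, against 6.11 and 5.93 at 0 h, and of 7.29 and 7.28 in the control line at 24 h, against 6.25 and 6.23 at 0 h. Both 24 h groups lay above both 0 h groups, with the knockdown-labelled arrays highest at 24 h and lowest at 0 h. Its change over the induction was 1.67 ± 0.08 in the line labelled Tet2 knockdown (3.18-fold, adjusted p = 2.04e-05) and 1.04 ± 0.08 in the control line (2.06-fold, adjusted p = 0.000147).

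H2-K1 had levels of 7.26 and 7.27 in the line labelled Tet2 knockdown at 24 h, against 6.24 and 6.23 at 0 h, and of 6.79 and 6.84 in the control line at 24 h, against 6.44 and 6.40 at 0 h. The order of the groups was that of H2-D1, with no overlap between neighbours. The change was 1.03 ± 0.05 in the line labelled Tet2 knockdown (2.05-fold, adjusted p = 2.3e-05), and 0.39 ± 0.05 in the control line (adjusted p = 0.0013), below the 2-fold limit. This probe was spotted 10 times on each array, and the SD over its spots was 0.03 to 0.05. The second H2-K1 probe read 6.21 and 6.15 in the line labelled Tet2 knockdown at 24 h, against 4.91 and 4.81 at 0 h, and 5.65 and 5.74 in the control line at 24 h, against 5.04 and 4.98 at 0 h. Its changes were 1.32 ± 0.07 and 0.68 ± 0.07, higher than those of the first probe in both lines.

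H2-T24 encodes a class I-like chain of the T region. It was well above background on both knockdown-labelled arrays at 24 h, where it read -2.66 and -2.61, and on 1 of the other 6 arrays. The readings were -7.25 and -7.05 in that line at 0 h, -5.91 and -4.96 in the control line at 24 h, and -5.0 and -6.97 in the control line at 0 h. These groups were at or near background, so no order is read among them. Over the induction of the line labelled Tet2 knockdown H2-T24 rose at least 7.34-fold (adjusted p = 0.00165), where the dim group was set to the lowest signal read above background. The measured means behind this bound were -2.64 ± 0.04 at 24 h and -7.15 ± 0.14 at 0 h (SD, n = 2 each). The second probe gave at least 9.04-fold (adjusted p = 8.87e-06). Here and below, the adjusted p beside such a bound comes from the limma fit on the measured readings. Both probes were kept only through this high group, so the calls are a description. In the control line the second probe read -5.27 and -5.59 at 24 h, against -7.28 and -7.07 at 0 h, all not well above background. No fold can be given for the control line, because its 24 h arrays were not well above background by either probe.

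B2m encodes the light chain that every class I heavy chain needs at the cell surface. Its levels were 7.71 and 7.67 in the line labelled Tet2 knockdown at 24 h, against 6.55 and 6.43 at 0 h, and 7.28 and 7.25 in the control line at 24 h, against 6.63 and 6.59 at 0 h. As with H2-D1, the 4 groups did not overlap, although only 0.04 separated the lowest pair at 0 h. B2m changed by 1.20 ± 0.06 in the line labelled Tet2 knockdown (2.29-fold, adjusted p = 2.5e-05) and by 0.65 ± 0.06 in the control line (1.57-fold, adjusted p = 0.000319), the second below the 2-fold limit.

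**Figure D2:**
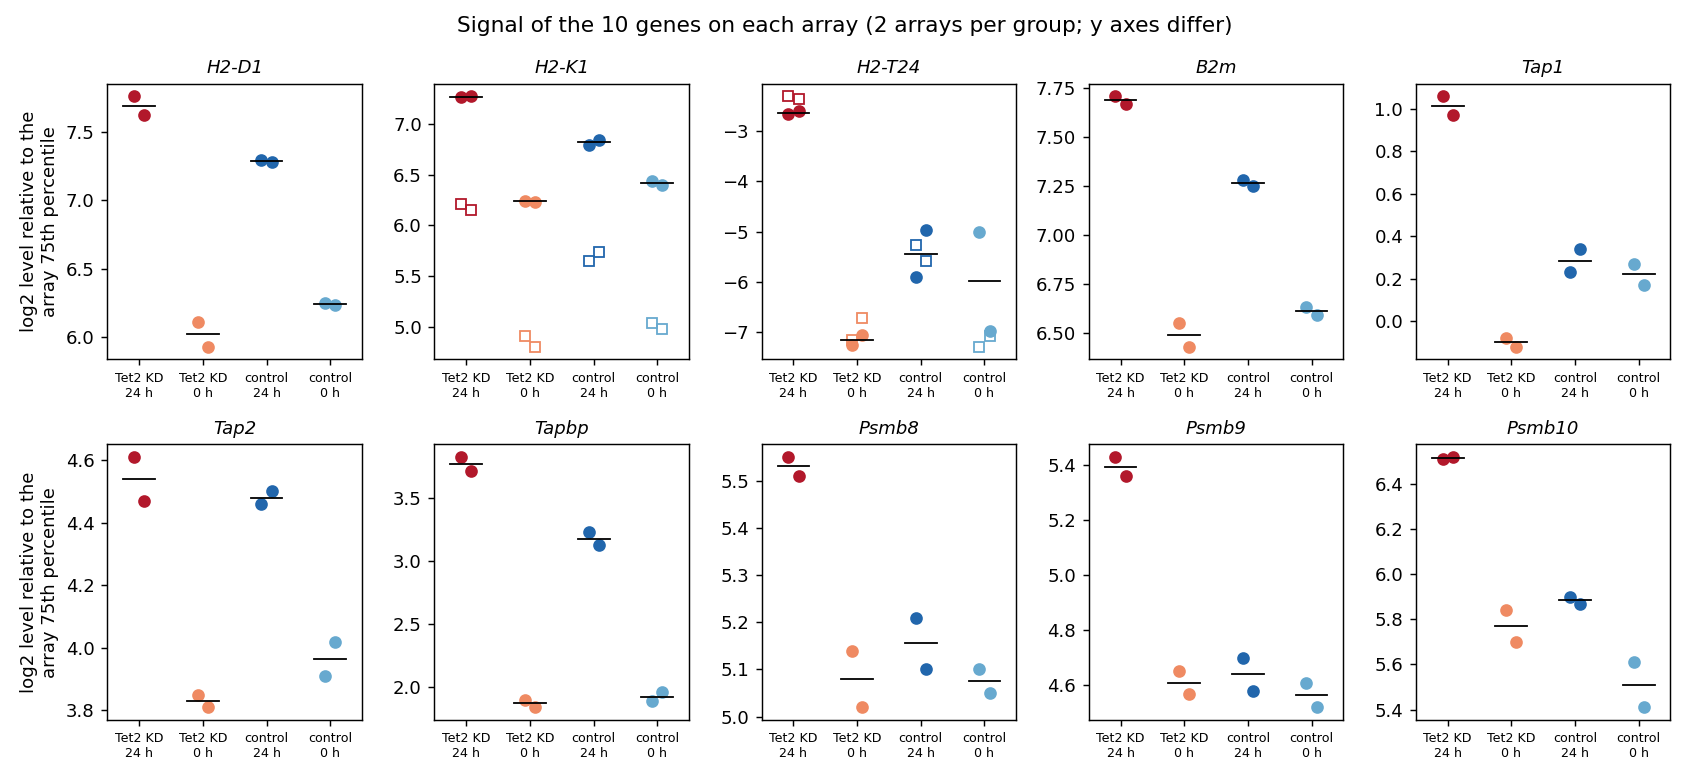
Level of each gene on each of the 8 arrays, as log2 signal relative to the array's 75th percentile, by group (2 arrays each; black line, mean). Open squares are second probes of H2-K1 and H2-T24. The 2 knockdown-labelled arrays at 24 h are the highest for 9 of the 10 genes, Tap2 being the exception. H2-T24, among the 9, was kept only through that group, and its other readings are mostly not above background.

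Tap1 and Tap2 encode the chains of the TAP peptide transporter. Tap1 had levels of 1.06 and 0.97 in the line labelled Tet2 knockdown at 24 h, against -0.08 and -0.12 at 0 h, and of 0.23 and 0.34 in the control line at 24 h, against 0.27 and 0.17 at 0 h. The control arrays of both times overlapped, and the knockdown-labelled arrays were the highest at 24 h and the lowest at 0 h. Tap1 rose by 1.11 ± 0.07 in the line labelled Tet2 knockdown (2.16-fold, adjusted p = 5.54e-05), and its change in the control line was 0.07 ± 0.07 (adjusted p = 0.476, 95% interval -0.12 to 0.25), which turned to -0.04 with arrays scaled by their median. The probe was spotted 10 times, with a spot SD of 0.05 to 0.08.

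Tap2 had levels of 4.61 and 4.47 in the line labelled Tet2 knockdown at 24 h, against 3.85 and 3.81 at 0 h, and of 4.46 and 4.50 in the control line at 24 h, against 3.91 and 4.02 at 0 h. Here the 24 h groups of both lines overlapped, and both stood above 0 h. The changes were 0.71 ± 0.07 (adjusted p = 0.00036) and 0.52 ± 0.07 (adjusted p = 0.00155), both below 2-fold.

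Tapbp, which holds the empty class I molecule at the transporter, changed by the largest amount among the genes well above background on all arrays. Its levels were 3.83 and 3.72 in the line labelled Tet2 knockdown at 24 h, against 1.90 and 1.84 at 0 h, and 3.23 and 3.13 in the control line at 24 h, against 1.89 and 1.96 at 0 h. The 0 h groups overlapped, and both 24 h groups were clear of them and of each other. Tapbp rose by 1.90 ± 0.07 in the line labelled Tet2 knockdown (3.74-fold, adjusted p = 7.73e-06) and by 1.26 ± 0.07 in the control line (2.39-fold, adjusted p = 3.93e-05).

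The 3 immunoproteasome subunits changed by less than 2-fold in each line. Psmb8, the inducible counterpart of Psmb5, had levels of 5.55 and 5.51 in the line labelled Tet2 knockdown at 24 h, against 5.14 and 5.02 at 0 h, and of 5.21 and 5.10 in the control line at 24 h, against 5.10 and 5.05 at 0 h. Psmb9, the counterpart of Psmb6, had levels of 5.43 and 5.36 in the line labelled Tet2 knockdown at 24 h, against 4.65 and 4.57 at 0 h, and of 4.70 and 4.58 in the control line at 24 h, against 4.61 and 4.52 at 0 h. For both genes the knockdown-labelled arrays at 24 h stood above all others, and the other 3 groups overlapped. Psmb10, the counterpart of Psmb7, had levels of 6.51 and 6.52 in the line labelled Tet2 knockdown at 24 h, against 5.84 and 5.70 at 0 h, and of 5.90 and 5.87 in the control line at 24 h, against 5.61 and 5.41 at 0 h. Its groups did not overlap, but only 0.03 separated the control arrays at 24 h from the knockdown-labelled arrays at 0 h.

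The changes over the induction of the line labelled Tet2 knockdown were 0.45 ± 0.07 for Psmb8, 0.78 ± 0.07 for Psmb9 and 0.74 ± 0.09 for Psmb10, with adjusted p of 0.00255, 0.000233 and 0.000655. In the control line Psmb8 changed by 0.08 ± 0.07 (adjusted p = 0.389) and Psmb9 by 0.07 ± 0.07 (adjusted p = 0.428), and both values fell below 0 with median scaling (-0.03 each). Psmb10 changed by 0.38 ± 0.09 there (adjusted p = 0.0125). Tap1 and Psmb9, the head-to-head pair, both gave values near 0 in the control line, as did Psmb8, which is not of that pair.

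At 24 h the class I genes stood somewhat higher in the line labelled Tet2 knockdown than in the control line, and the size was under 2-fold for all but H2-T24. None of the 9 other genes was called, beside 1.04% of all genes called higher, and 8 of the 9 had an unadjusted p under 0.05 by limma, as did 31.3% of all genes. H2-T24 passed both limits, at least 4.10-fold higher (adjusted p = 0.0492), but it was testable only through the group that was high here, so the call is a description. Measured means were -2.64 ± 0.04 in the line labelled Tet2 knockdown and -5.44 ± 0.67 in the control line (SD, n = 2 each), and the second probe gave at least 5.05-fold (adjusted p = 0.00152). That call for the first probe is at the edge: it was lost without any single replicate outside the control line at 0 h (adjusted p of 0.0798 to 0.192), with the slide as a block (adjusted p = 0.0523), or with quantile normalization (adjusted p = 0.0505).

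Psmb9 and Tap1 differed most among the other 9, by 0.76 ± 0.07 (adjusted p = 0.00476) and 0.73 ± 0.07 (adjusted p = 0.00517). Psmb10 differed by 0.63, Tapbp by 0.59, H2-K1 by 0.45, B2m by 0.43, H2-D1 by 0.41 and Psmb8 by 0.37, with adjusted p of 0.00813 to 0.0348. Tap2 gave 0.06 ± 0.07 (adjusted p = 0.661, 95% interval -0.13 to 0.24), and -0.01 with median scaling. Thus 9 of the 10 passed the adjusted p alone (3 of the 10 without any one of the 4 arrays compared), beside 7.39% of all genes as higher, and the median was 0.52 (0.45 without H2-T24) against 0.04 for all genes. Both 24 h arrays of the line labelled Tet2 knockdown lay above the other 6 arrays for 9 of the 10 genes, which held for 18.0% of all genes. H2-T24 is among the 9 in both counts, and it was kept only through this same high group. Without it, 8 of 9 genes passed the adjusted p alone.

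These small differences depend on how the arrays are put on one scale. The 75th percentile of the signal was 721.5 and 895.7 in the knockdown-labelled arrays at 24 h, against 1094 and 1251 in the control arrays at 24 h. Before any scaling, 4 of the 10 genes were brighter in the line labelled Tet2 knockdown on slide 1 and 5 of the 10 on slide 2. The unscaled median difference of the 10 genes was -0.07 on slide 1 and 0.03 on slide 2, against -0.55 and -0.45 for all genes. With arrays scaled by their median the median difference of the 10 genes stayed above 0, at 0.45, but only H2-T24 passed the adjusted p (0.0461). Quantile normalization gave a median of 0.44 with 5 of the 10 passing, and normexp background correction gave 0.50 with 8 of the 10 passing. The 15 reference genes had a median difference of 0.04, and -0.02, -0.01 and 0.01 under those 3 settings. Single reference genes were not all flat. Actb differed by 0.38 and Gapdh by 0.32 with the 75th percentile, and by 0.31 and 0.25 with median scaling. With quantile normalization each gave -0.01.

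**Figure D3:**
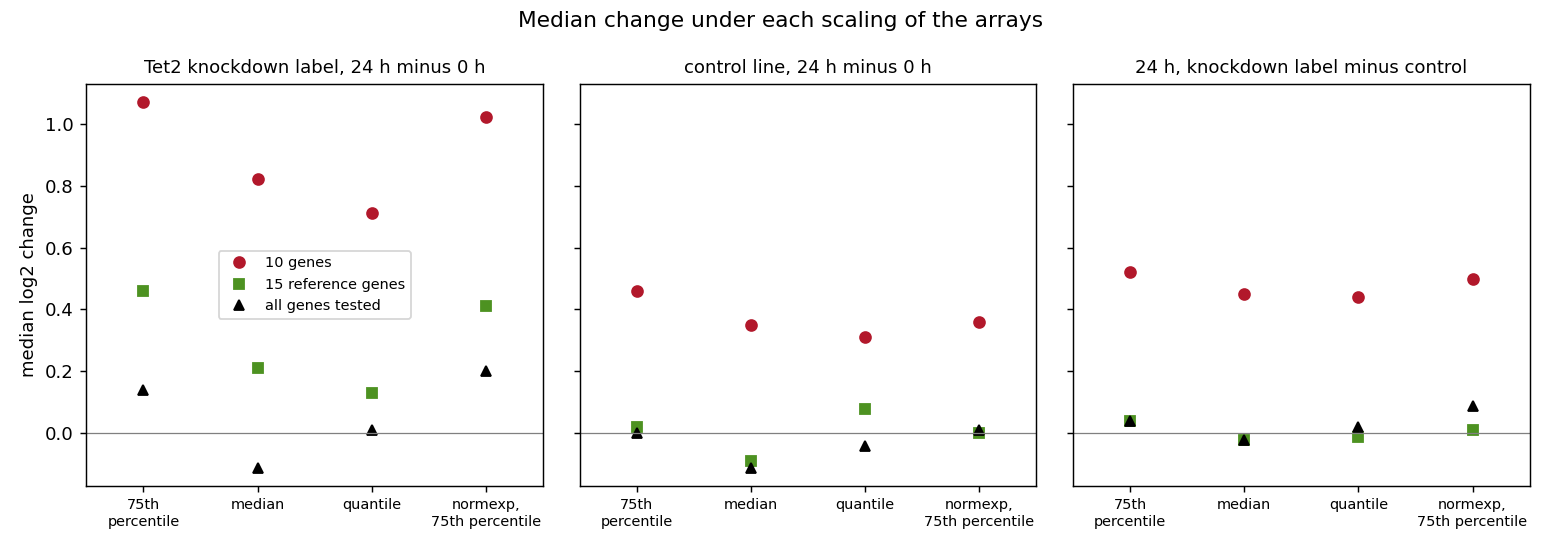
Median log2 change of the 10 class I genes (red circles), 15 reference genes (green squares) and all genes tested (black triangles) under 4 ways of scaling the arrays, for the inductions of the 2 lines and for the comparison of lines at 24 h. The class I median is above the other 2 medians under each scaling, and in the induction of the line labelled Tet2 knockdown it is 0.71 with quantile normalization, against 1.07 with the 75th percentile.

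At 0 h no member was called in either direction, beside 0.334% of all genes called higher and 1.39% called lower. By limma, 4 of the 10 had an unadjusted p under 0.05, as did 30.7% of all genes. Tap1 alone passed the adjusted p, at -0.31 ± 0.07 (adjusted p = 0.048), and it was lower in the line labelled Tet2 knockdown by less than 2-fold. By the adjusted p alone 7.56% of all genes were lower. H2-D1 gave -0.22 ± 0.08 (adjusted p = 0.147) and H2-K1 gave -0.19 ± 0.05 (adjusted p = 0.0781). B2m differed by -0.12 ± 0.06 (adjusted p = 0.293), and this turned to 0.01 with quantile normalization. Psmb10 gave 0.26 ± 0.09 (adjusted p = 0.117), the highest of the 10. The median was -0.12, against 0.00 for all genes.

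**Figure D4:**
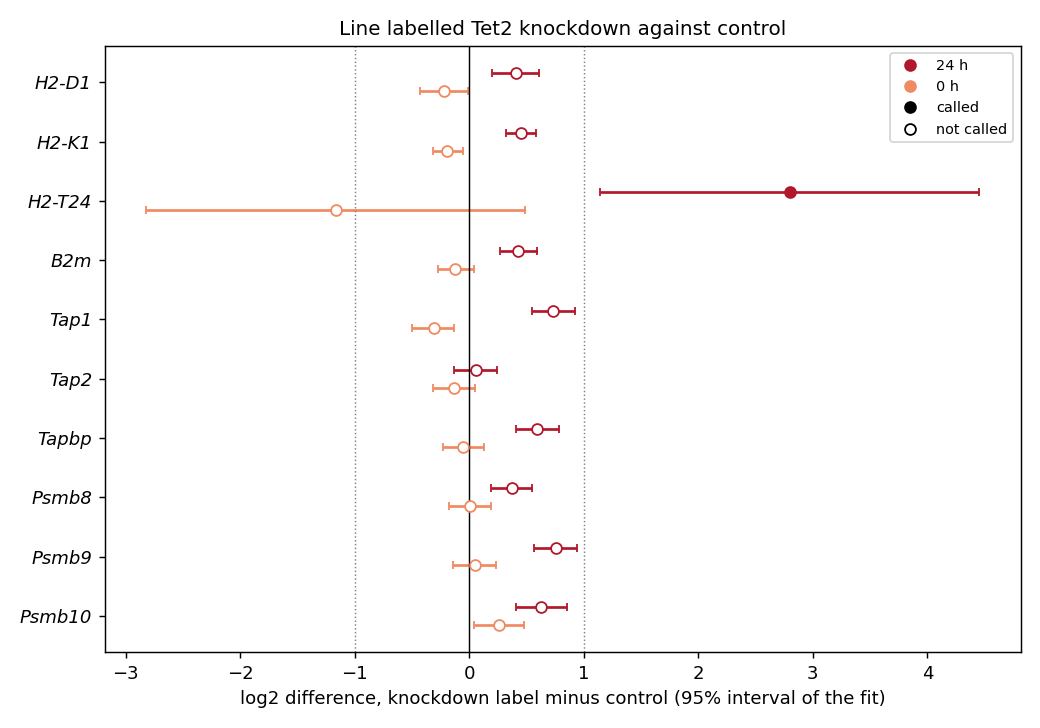
Difference of the line labelled Tet2 knockdown minus the control line for each gene, in log2 with the 95% interval of the fit, at 24 h (red, upper) and at 0 h (orange, lower). At 24 h Tap2 is lowest, at 0.06 (-0.01 when arrays are scaled by their median), and the one filled point, H2-T24, passed both limits. Without H2-T24, whose points rest on readings mostly not above background, the values run from 0.06 to 0.76 at 24 h and from -0.31 to 0.26 at 0 h.

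Whether the induction itself differed between the lines was tested as an interaction, the change in the line labelled Tet2 knockdown minus that in the control line. Of the 9 genes other than H2-T24, Tap1 was called, at 1.05 ± 0.10 (adjusted p = 0.00672), beside 2.36% of all genes called higher. H2-T24 also passed both limits, but 3 of its 4 groups were not well above background on 1 or both arrays and the gene was kept through the fourth, so no size is read from it. Its call was lost without any single replicate other than control replicate 2 at 0 h (adjusted p of 0.0539 to 0.124). Tap1 stayed just short of 2-fold without control replicate 1 at 24 h (0.99, adjusted p = 0.0341), without control replicate 1 at 0 h (1.00, adjusted p = 0.0325) and with normexp correction (0.98). With the adjusted p alone 6 of these 9 passed (9.22% of all genes did so as higher), between 2 and 6 with any one replicate left out, and the median was 0.63 with or without H2-T24, against 0.05 for all genes. Tap2 (0.19 ± 0.10), Psmb8 (0.37 ± 0.10) and Psmb10 (0.37 ± 0.12) did not pass. No member passed limma's adjusted p with median scaling, where 2 of the 10 had an unadjusted p under 0.05 and Tap1 gave 0.90 (adjusted p = 0.256), and 5 of the 10 passed with quantile normalization. Reference genes had a median of 0.19, with Actb at 0.41 and Gapdh at 0.44. The 5 comparisons share arrays, so their values are not independent of each other.

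The standard catalytic subunits, which the immunoproteasome subunits replace, were called in none of the 5 comparisons. Psmb5 had levels of 7.67 and 7.56 in the line labelled Tet2 knockdown at 24 h, against 7.35 and 7.14 at 0 h, and of 7.50 and 7.33 in the control line at 24 h, against 7.09 and 7.07 at 0 h. Its changes were 0.37 ± 0.10 (adjusted p = 0.0203) and 0.33 ± 0.10 (adjusted p = 0.0323). Psmb6 and Psmb7 each gave 0.00 in the line labelled Tet2 knockdown (adjusted p of 0.983 and 0.982) and -0.12 in the control line (0.232 and 0.446). At 24 h the 3 differed between the lines by 0.19 to 0.22, with none passing the adjusted p. Of 11 other subunits of the 20S core, none was called in any comparison, although by limma's adjusted p alone 4 passed as higher and 3 as lower in the induction of the line labelled Tet2 knockdown.

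Psme1 and Psme2, the chains of the PA28 proteasome activator, gave 0.31 ± 0.10 (adjusted p = 0.0314) and 0.71 ± 0.07 (adjusted p = 0.000334) over the induction of the line labelled Tet2 knockdown. In the control line they gave -0.10 ± 0.10 (adjusted p = 0.407) and 0.48 ± 0.07 (adjusted p = 0.00205). At 24 h Psme1 differed between the lines by 0.46 ± 0.10 (adjusted p = 0.0359) and Psme2 by 0.36 ± 0.07 (adjusted p = 0.032). Among 10 proteasome activators and assembly factors, the assembly chaperones Psmg1 and Psmg2 fell in both lines. Psmg2 changed by -1.46 ± 0.11 (adjusted p = 7.97e-05) and -1.38 ± 0.11 (adjusted p = 0.000117), and Psmg1 by -1.09 ± 0.09 (adjusted p = 0.000127) and -1.04 ± 0.09 (adjusted p = 0.000177), in the line labelled Tet2 knockdown and the control line.

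Among other class I and class I-like heavy chains, more rose in the line labelled Tet2 knockdown than in the control line. Of 28 on the list, 24 were on the array and 16 were tested. In the line labelled Tet2 knockdown 10 of the 16 rose and none fell, with a median change of 1.32, beside 16.7% of all genes called higher. In the control line 4 rose (2 with median scaling or quantile normalization) and none fell, with a median of 0.66, beside 14.2% of all genes. The largest values in the line labelled Tet2 knockdown were those of H2-Q6 (1.80 ± 0.08, adjusted p = 1.2e-05), H2-Q10 (1.77 ± 0.06, adjusted p = 4.1e-06) and H2-M11. H2-M11 was dim at 0 h, and it rose at least 2.62-fold (adjusted p = 0.00428). In the control line Cd1d1 and Cd1d2, which present lipids rather than peptides, rose most, by 1.72 ± 0.08 (adjusted p = 1.54e-05) and 1.41 ± 0.14 (adjusted p = 0.000356), followed by H2-Q6 (1.08 ± 0.08, adjusted p = 9.82e-05). At 24 h none of the 16 was called between the lines, and the median difference was 0.48. As higher, 9 passed the adjusted p, beside 7.39% of all genes. H2-T9 had the one called interaction (1.04 ± 0.25, adjusted p = 0.0466), and it was not called with median scaling, quantile normalization or normexp correction. Probes of the Q and T regions may share signal with each other, which was not tested.

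**Figure D5:**
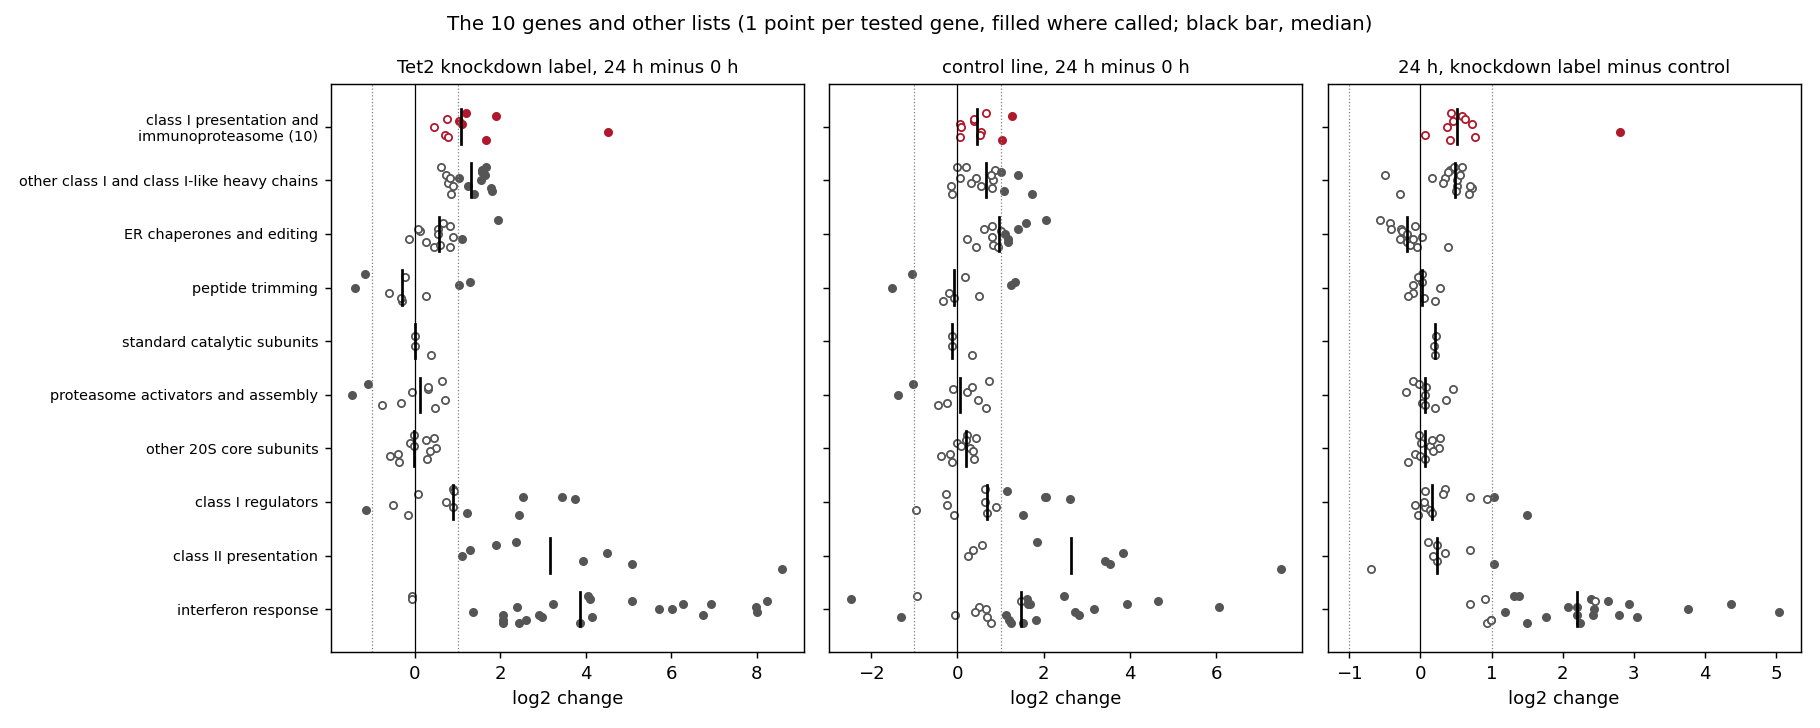
Log2 change of each tested gene in the class I set (red) and in other lists (grey) for both inductions and for the lines at 24 h; points are filled where called, black bars are medians and dotted lines mark 2-fold. Medians of the class I set are 1.07, 0.46 and 0.52, while those of the interferon response genes are 3.87, 1.47 and 2.20 and those of the standard catalytic subunits are 0.00, -0.12 and 0.20.

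The chaperones that fold and edit class I molecules in the endoplasmic reticulum were followed as a separate list. Of 14, 2 rose in the line labelled Tet2 knockdown (median 0.56), beside 16.7% of all genes, and 6 rose in the control line (median 0.97), beside 14.2%. By the adjusted p alone 5 of the 14 were already higher in the line labelled Tet2 knockdown at 0 h (5.93% of all genes). By the same rule 1 was lower, beside 7.56% of all genes. The thiol oxidase Ero1l rose by 1.95 ± 0.06 (adjusted p = 4.04e-06) and 2.05 ± 0.06 (adjusted p = 4.05e-06), and the glycoprotein folding sensor Uggt1 by 1.10 ± 0.09 (adjusted p = 0.000117) and 1.17 ± 0.09 (adjusted p = 0.000106). Pdia3, a partner of tapasin in the loading complex, rose in the control line by 1.59 ± 0.16 (adjusted p = 0.000332), and in the line labelled Tet2 knockdown it gave 0.65 ± 0.16 (adjusted p = 0.0121). Its interaction was -0.94 ± 0.22 (adjusted p = 0.044). None of the 14 was called for the interaction, and the median was -0.29. As lower, 6 passed the adjusted p, beside 7.07% of all genes. Among 9 tested genes of peptide trimming, Dpp9 and Lnpep rose and Lap3 and Thop1 fell in both lines. Thop1, a cytosolic peptidase, changed by -1.41 ± 0.12 (adjusted p = 0.000145) in the line labelled Tet2 knockdown and -1.51 ± 0.12 (adjusted p = 0.000125) in the control line, and Dpp9 by 1.29 ± 0.09 (adjusted p = 8.24e-05) and 1.33 ± 0.09 (adjusted p = 8.46e-05).

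Of 13 tested regulators of class I genes, 5 rose and 1 fell in the line labelled Tet2 knockdown, beside 16.7% and 15.5% of all genes. In the control line 5 rose, beside 14.2% of all genes. Nlrc5, the transactivator of class I genes, had levels of 1.65 and 1.82 in the line labelled Tet2 knockdown at 24 h, against 0.82 and 0.80 at 0 h, and of 1.68 and 1.65 in the control line at 24 h, against 0.56 and 0.49 at 0 h. Its 24 h groups overlapped, and it changed by 0.92 ± 0.08 (adjusted p = 0.000133) and by 1.14 ± 0.08 (adjusted p = 6.64e-05), the second being called. At 24 h the lines differed by 0.07 ± 0.08 (adjusted p = 0.594). Irf1, a transcription factor of the interferon response, had levels of 2.54 and 2.59 in the line labelled Tet2 knockdown at 24 h, against 0.10 and -0.03 at 0 h, and of 1.92 and 1.83 in the control line at 24 h, against -0.10 and -0.21 at 0 h. It rose in both lines, by 2.53 ± 0.08 (adjusted p = 3.95e-06) and 2.03 ± 0.08 (adjusted p = 9.55e-06), and differed at 24 h by 0.69 ± 0.08 (adjusted p = 0.00726).

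Irf9 and Stat2, which help carry the type I interferon signal to DNA, rose by 3.75 ± 0.08 (adjusted p = 1.42e-06) and 3.45 ± 0.05 (adjusted p = 6.62e-07) in the line labelled Tet2 knockdown. They rose in the control line by 2.62 ± 0.08 (adjusted p = 4.83e-06) and 2.06 ± 0.05 (adjusted p = 2.58e-06). Stat2 was called higher in the line labelled Tet2 knockdown at 24 h, by 1.03 ± 0.05 (adjusted p = 0.00103), and Irf9 gave 0.93 ± 0.08 (adjusted p = 0.00378).

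Interferon response genes, given as a list for comparison, had larger median changes than the class I genes, at 3.87 over the induction of the line labelled Tet2 knockdown and 1.47 in the control line. Of 25 tested, 23 rose in the line labelled Tet2 knockdown, beside 16.7% of all genes. In the control line 15 rose and 2 fell, beside 14.2% and 13.1% of all genes. At 24 h 19 were called higher between the lines, beside 1.04% of all genes. Rtp4 differed most at 24 h, by 5.04 ± 0.22 (adjusted p = 0.000779). Of 10 interferon receptor and signalling genes 7 rose in the line labelled Tet2 knockdown, beside 16.7% of all genes. In the control line 6 rose, beside 14.2%. None was called between the lines at 24 h, and the median difference there was -0.07. Ifnb1 and Ifng, which encode interferons, did not pass the filter on dim probes, and none of the 3 interferon genes tested was called in any comparison.

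Class II presentation genes gave larger values than class I over the induction. Of 8 tested genes, 8 rose in the line labelled Tet2 knockdown (median 3.15), beside 16.7% of all genes, and 5 in the control line (median 2.63), beside 14.2%. Cd74, the invariant chain, had levels of 5.64 and 5.36 in the line labelled Tet2 knockdown at 24 h, against -2.95 and -3.23 at 0 h, and of 6.34 and 6.06 in the control line at 24 h, against -1.41 and -1.17 at 0 h. It gave -0.70 ± 0.17 between the lines at 24 h (adjusted p = 0.0522), the lowest of the 8. The 8 had a median of 0.23 there with 1 called higher, beside 1.04% of all genes. For the difference between the inductions the 8 had a median of 0.90, with 3 called higher and 7 passing the adjusted p alone. Of all genes, 2.36% were called higher there and 9.22% passed the adjusted p alone as higher. H2-Aa and Ciita did not pass the filter on dim probes.

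Genes whose 3 differences from the control line at 0 h lay closest to the class I median (0.92 in the line labelled Tet2 knockdown at 24 h, -0.12 in that line at 0 h and 0.46 in the control line at 24 h) were looked for among all other tested genes. The closest was Hc, complement component C5, at a Euclidean distance of 0.049 over the 3 differences, followed by Ganc at 0.082, Hemt1 and Inpp5k at 0.101 and March10 at 0.107. The next 5 were 1110054M08Rik, Plekho1, 9030617O03Rik, Krtap16-4 and Calcoco1, at up to 0.125. This is a description over 4 group means with no test.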

How the data were processed

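RNA from 8 cell samples was measured on 1-colour Agilent mouse arrays with Cy3-labelled cRNA, 1 array per sample. The deposited scanner files hold intensity per spot (gProcessedSignal), background-subtracted and detrended by Feature Extraction 10.7.3.1, per the file headers, with no scaling between arrays. The authors' deposited value table is in log2, with one distribution common to its columns; the submitters' processing notes name limma without a version. Its values followed those of normexp correction with quantile normalization, and it served only as an alternative.

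Each array's log2 intensity was taken relative to its 75th percentile. Control spots and outlier spots were left out, spots of a probe were averaged, and a probe was kept where both arrays of some group read it well above background. The kept probe with the highest mean level stood for a gene, and other probes are given beside it. One model over the 4 groups was fitted with limma 3.58.1 in R 4.3.3 (lmFit and eBayes), and p-values were adjusted over all 16154 genes by Benjamini-Hochberg. A gene was called at an adjusted p under 0.05 and a change of at least 2-fold.

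Slide 1 held replicate 1 of each group and slide 2 replicate 2, so the number marks a shared slide. Deviations from the group means correlated between same-numbered arrays with r of 0.30 to 0.41 in all 6 pairs of groups, and the numbers were taken to pair the arrays. The main model did not include this pairing, and the slide entered only as a block in an alternative.

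The members and the gene lists were chosen with earlier results of these data known. Named were the members, of each list up to 3 called genes with the largest changes (1 where none was called), Nlrc5, Irf1, Psmb5, Psmb6, Psmb7, Psme1, Psme2, H2-Aa, Cd74, Tet2, Actb and Gapdh, and the 10 genes most like the members; others named were chosen after their values were seen. Some genes under this rule are not reported here. Motifs were likewise chosen as known class I control elements. Alternatives covered scaling, background correction, the dim-probe filter, the probe per gene, the value table, the slide as a block, the variance model, the arrays in the fit, the fold limit and each replicate left out. The number of arrays limits the precision, and the median standard error of a log2 change was 0.10.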

Additional observations from a re-analysis of the deposited data

Results flagged for a closer look

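The change over the induction differed between the lines, by the interaction test with limma, for 7 of the 10 class I genes, beside 9.22% of all genes by the same adjusted p as higher; with any one replicate left out, 2 to 6 passed. The difference, line labelled Tet2 knockdown minus control line, was 0.63 for H2-D1, 0.64 for H2-K1, 0.54 for B2m, 0.65 for Tapbp, 0.71 for Psmb9, 1.05 for Tap1 and 3.96 for H2-T24 on the log2 scale, with adjusted p of 0.00672 to 0.0445. H2-T24 was kept only through its high group and was mostly not above background in the other 3, so its 3.96 is a fitted value and not a measured size. Each of the 7 was positive on slide 1 and on slide 2. None passed the adjusted p when arrays were scaled by their median, where 2 of the 10 genes had an unadjusted p under 0.05, and the reference genes had a median of 0.19.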

How the results depend on the processing

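Over the induction of the line labelled Tet2 knockdown, where 6 class I genes were called, 3 were called with median scaling, 4 with quantile normalization or the authors' deposited value table and 10 with no fold limit; leaving out any one replicate gave 6. In the control line the 2 calls became 1 with median scaling, quantile normalization or the value table, 6 with no fold limit, and 2 to 3 with a replicate left out. At 24 h the call of H2-T24 was lost (0 called) with quantile normalization, without the filter on dim probes, with a filter on all 8 arrays (which removes the gene), with only the arrays compared, and with a replicate left out (0 to 1); 9 passed with no fold limit. At 0 h 0 genes were called with any replicate left out, and 1 passed with no fold limit. For the difference between the inductions, the 2 calls (Tap1 and H2-T24) became 0 with median scaling or without the filter, 1 with normexp correction, the all-array filter or the value table, 7 with no fold limit, and 0 to 2 with a replicate left out. With the slide as a replicate block, 6, 2, 0, 0 and 2 genes were called in the 5 comparisons; the block ended the call of H2-T24 at 24 h (adjusted p = 0.0523) and no other call of a class I gene. The causes were not tested. With a replicate left out, single values ran from -0.01 (Tap2) to 3.27 (H2-T24) at 24 h and from -2.15 (H2-T24) to 0.36 (Psmb10) at 0 h.

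Signs turned only for values not called. In the control line's induction these were Tap1 (-0.04, median scaling), Psmb8 (-0.03 with median scaling, -0.10 with quantile normalization, -0.08 in the value table), Psmb9 (-0.03, -0.05 and -0.02 under the same settings) and H2-T24 (-0.43 without control replicate 2 at 0 h). At 24 h Tap2 gave -0.01 with median scaling and without replicate 1 of the line labelled Tet2 knockdown. At 0 h Tapbp gave 0.02 (median scaling), B2m 0.01 (quantile) and 0.05 (value table), and Psmb8 -0.02 (quantile, normexp and value table), -0.05 without knockdown-labelled replicate 1 and -0.02 without control replicate 2. Within a single slide signs also turned for values not called. Among them were H2-T24 in the control line's induction (-0.91, slide 1) and Tap2 at 24 h (-0.03, slide 2).

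Over all genes, calls moved by more than 1.5 times for the difference between the inductions (618, against 212 with median scaling, 279 with normexp, 121 without the filter and 288 in the value table). They did so at 24 h (329, against 154 with normexp, 187 without the filter and 163 in the value table) and at 0 h (279, against 98, 166 with only the arrays compared, and 96 in the value table). With no fold limit, 11018, 9991, 2236, 2179 and 2631 genes passed in the 5 comparisons. The share of calls that were higher was 51.96% in the induction of the line labelled Tet2 knockdown, against 39.08% with median scaling. For the difference between the inductions it was 61.65%, against 48.11% with median scaling and 74.55% with normexp, and at 0 h it was 19.35%, against 6.12% with normexp. In the induction of the line labelled Tet2 knockdown the all-gene median was 0.14, and -0.11 with median scaling. H2-T24, not well above background on 5 of 8 arrays, is limited by its signal. With 2 technical duplicates a group, no value here carries error between cultures.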

Other observations

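Markers of cell types other than pre-B and macrophage were summed on each array (log2). T cell markers stood at 2.35 to 2.68 in the line labelled Tet2 knockdown and 2.07 to 2.46 in the control line at 24 h, and at 1.41 to 1.68 and 1.53 to 1.60 in these lines at 0 h. NK cell markers stood at -0.79 to -0.60 in the line labelled Tet2 knockdown and -1.23 to -1.20 in the control line at 24 h, and at -1.46 to -1.21 and -1.10 to -1.08 at 0 h. Dendritic cell markers stood at 5.98 to 5.99 in the line labelled Tet2 knockdown and 5.58 to 5.64 in the control line at 24 h, and at 5.57 to 5.69 and 5.44 to 5.63 at 0 h. Erythroid markers stood at -2.67 to -2.35 in the line labelled Tet2 knockdown and -2.38 to -2.37 in the control line at 24 h, and at -2.97 to -2.83 and -2.24 to -2.19 at 0 h. Stromal markers stood at -2.39 to -2.04 in the line labelled Tet2 knockdown and -1.76 to -1.44 in the control line at 24 h, and at -3.94 to -3.33 and -3.96 to -2.97 at 0 h. At 24 h the sums of NK and dendritic cell markers were thus higher in the line labelled Tet2 knockdown, and that of stromal markers was lower. Sums of T cell and erythroid markers overlapped between the lines. A sum follows its brightest genes. On neither knockdown-labelled array at 24 h were 5 of 7 NK and 5 of 7 stromal markers well above background. Bright dendritic cell markers split, with Bst2 at 5.23 against 4.29 in the control line and Siglech at 4.6 against 4.8. Of 7 dendritic cell markers tested, 1 was called higher and 1 lower at 24 h. The part of these markers in the class I values was not tested.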
